A study of Mus musculus with 3 samples.

Results

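Very long protein-coding genes, those whose record in the mouse annotation (GENCODE M1, mm9) spans at least 200 kb on chromosomes 1 to 19 and X, were followed in Ser5-P ChIP-Seq data of macrophages. The length rule kept 954 of 22350 coding genes (4.27%), with a median length of 320.3 kb, and used no measured value. Each gene was read in 3 windows taken from the first base of its record: 1 kb on either side of the start, the first 50 kb, and the rest of the body. The study measured the positions of RNA polymerase II (Pol_II) that carries phosphate on Ser5 of the C-terminal repeats (Ser5-P) in primary bone marrow-derived macrophages of female Fvb/Hsd mice. There were 3 libraries. Ser5-P was sequenced from untreated cells and from cells that had LPS at 10 ng/ml for 2 h, and input DNA of untreated cells served as control for both. LPS is the endotoxin of Gram-negative bacteria. The labels name LPS alone, while the study's text names gamma interferon beside LPS for other libraries and for part of its ChIP, so whether these cells also had interferon was not settled. All cells were grown in medium with L929-conditioned medium, and the sources used here do not say how many mice were pooled. There was 1 library per condition, so the spread between replicates is unknown and no test was possible. The intervals given are 95% intervals that cover counting error alone, and a difference of at least 2 times in windows with at least 10 Ser5-P tags was used as a rule of size.

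The C-terminal domain of the largest Pol_II subunit is a run of repeats of 7 residues, and Ser5 of these repeats is phosphorylated by TFIIH as transcription begins. The mark is strongest near promoters and persists at a lower level while the polymerase crosses the gene. On a very long gene, signal far downstream can come from polymerases that began at the record start or from those that began at an inner start or in an overlapping gene, and tags do not tell these apart. Very long genes include many neuronal adhesion and synapse genes, and they also hold kinases and transcription factors that macrophages need.

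These 5 stretches are the 250 bases before annotated starts (mm9, read 5′ to 3′ along the gene), with each CpG in capitals. They are shown because the results below turn on these starts: Slco3a1 and Lass6 gave the largest ratios of LPS over untreated Ser5-P in the first 50 kb, Nav2 gave the smallest, and Gas7 went in opposite directions from its outer and its inner start.
Slco3a1 (chr7:81699667-81699916, minus strand): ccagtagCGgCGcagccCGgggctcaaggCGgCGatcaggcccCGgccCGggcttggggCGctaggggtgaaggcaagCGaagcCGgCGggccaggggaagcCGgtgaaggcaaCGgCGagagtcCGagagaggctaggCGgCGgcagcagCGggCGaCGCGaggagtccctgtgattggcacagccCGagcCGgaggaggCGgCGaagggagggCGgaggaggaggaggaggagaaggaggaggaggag
Lass6 (chr2:68699248-68699497, plus strand): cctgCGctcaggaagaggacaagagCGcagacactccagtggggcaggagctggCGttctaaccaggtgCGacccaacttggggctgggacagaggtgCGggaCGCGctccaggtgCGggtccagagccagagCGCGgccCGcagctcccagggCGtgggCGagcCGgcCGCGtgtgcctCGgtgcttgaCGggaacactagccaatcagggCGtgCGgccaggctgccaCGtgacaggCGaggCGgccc
Nav2 (chr7:56501309-56501558, plus strand): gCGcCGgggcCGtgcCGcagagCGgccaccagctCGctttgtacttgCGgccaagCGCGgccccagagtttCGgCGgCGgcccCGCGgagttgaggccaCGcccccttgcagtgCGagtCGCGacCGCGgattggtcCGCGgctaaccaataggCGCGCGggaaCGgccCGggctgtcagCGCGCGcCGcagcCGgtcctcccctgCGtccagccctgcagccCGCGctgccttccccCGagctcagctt
Gas7 record start (chr11:67268689-67268938, plus strand): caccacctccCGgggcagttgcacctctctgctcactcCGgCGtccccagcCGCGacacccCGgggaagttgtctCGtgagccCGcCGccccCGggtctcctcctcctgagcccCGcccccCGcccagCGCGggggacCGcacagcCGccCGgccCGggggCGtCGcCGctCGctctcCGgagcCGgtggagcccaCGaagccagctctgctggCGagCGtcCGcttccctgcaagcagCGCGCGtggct
Gas7 inner start (chr11:67399752-67400001, plus strand): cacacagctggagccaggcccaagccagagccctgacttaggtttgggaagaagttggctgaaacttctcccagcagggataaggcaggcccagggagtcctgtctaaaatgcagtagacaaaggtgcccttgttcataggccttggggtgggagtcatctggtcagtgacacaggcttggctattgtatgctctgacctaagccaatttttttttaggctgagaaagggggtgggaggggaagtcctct

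The 4 stretches at record starts hold 23 to 36 CpG and 70.4% to 76.4% G+C. The inner start of Gas7, 131.1 kb into the record, has no CpG in these bases and 53.2% G+C. Over all members, 505 of 954 (52.9%, exact binomial interval 49.7% to 56.1%) had at least 50% G+C and a CpG content of at least 0.6 times that expected from base composition in the 250 bases before the start, against 38% of 22345 coding genes. That share was 74.4% (253 of 340) for members with a Ser5-P peak at the start in either library and 41.0% (252 of 614) for those with none, beside 62.3% and 14.7% for all coding genes. Among genes without a peak, CpG-rich promoters were thus more frequent in the very long genes than in coding genes in general. Of the motifs searched on both strands, GGGCGG (the GC box, bound by Sp factors) lay in 50.6% of member promoters and 39.6% of all, TATAAA in 5.14% and 12.3%, TGACTCA (AP-1) in 2.20% and 3.86%, GAGGAAGT (PU.1) in 1.57% and 2.24%, and an NF-kB motif in 0.839% and 1.38%. A match is only a run of letters and says nothing of binding.

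The depth was 7616771 tags for untreated Ser5-P, 6249819 for Ser5-P after LPS and 7533308 for the input. The members hold 9.16% and 9.32% of the tags of the Ser5-P libraries against 16.1% of the input tags. Values are given as TPM per kb, the tags in a window after scaling each library to 1000000 tags, divided by the window's length in kb. Outside the deposited peaks lie 50.2% of the untreated and 46.6% of the LPS Ser5-P tags against 95.5% of the input tags, so DNA without Ser5-P has a ratio to input well under 1 on this scale. Values called below or above the input are on this scale unless said otherwise, and a value below the input does not by itself show that Ser5-P was absent. When the libraries are scaled to the tags outside peaks instead, every LPS over untreated ratio is multiplied by 1.08, a shift of 0.11 on the log2 scale. Ratios between 0.929 and 1 then lie above 1. Of the macrophage markers, the 7 found by symbol (such as Csf1r, Itgam and Lyz2) had a Ser5-P peak at the start in both libraries, and none of the 20 markers of T cells, B cells, neurons, fibroblasts and muscle had one in either. The LPS treatment was visible at Tnf, with 1931 tags over the gene before and 13556 after, and at Ccl5, with 24 and 8017 tags. The deposited tags span 45 bases in the untreated, 30 in the LPS and 36 in the input library, and the first 30 bases of 98.76%, 99.97% and 99.55% of them occur once in the genome. The study's methods give the lengths of the Ser5-P libraries the other way round, and the lengths in the files were used.

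Fewer of the very long genes had Ser5-P at the start than genes of middle length. A deposited peak lay within 1 kb of the record start in 335 of 954 members (35.1%, 32.1% to 38.2%) in untreated cells, where the share over all coding genes was 48%. After LPS it lay there in 303 (31.8%, 28.8% to 34.8%), where the share over all coding genes was 45.9%. In untreated cells the shares were 60.2% for genes of 50 to 100 kb and 51.9% for genes of 100 to 200 kb, and 33.7% for genes under 10 kb. In 298 members the peak was present in both libraries, in 37 in untreated cells only and in 5 after LPS only, which left 614 (64.4%) with none.

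**Figure D1:**
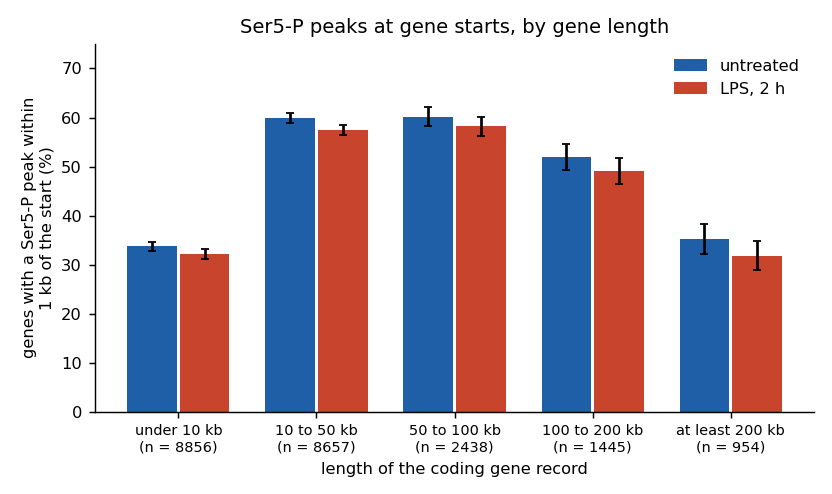
Share of coding genes with a deposited Ser5-P peak within 1 kb of the record start (y axis, percent) in 5 classes of gene length (x axis), for untreated (blue) and LPS-treated (red) cells. Bars start at 0 and error bars are exact 95% binomial intervals. The class of at least 200 kb stands at 35.1% and 31.8%, below the classes from 10 to 200 kb.

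Some members had Ser5-P at another annotated start and not at that of the record. A peak was found at any annotated start in 393 members, of which 53 had none at the start of the record. By library the shares with a peak at any annotated start were 40.4% in untreated cells and 36.4% after LPS. They were 50.4% and 48.2% over all coding genes, and 58.3% and 55.4% in genes of 100 to 200 kb. Among the 357 members with at least 50 Ser5-P tags around their most tagged start, that start lay over 1 kb inside the record in 64, at a median of 130 kb. Counts like the 53 and the 64 are not given here for all coding genes, so they do not set the members apart. Snd1, a nuclease of the RNA-induced silencing complex and a transcription coactivator, shows this at short range. The 2 kb around its record start held 2, 1 and 5 tags (untreated, LPS, input), and a start 5.2 kb downstream held 282, 238 and 20. A call at the record start would thus miss this gene, although both Ser5-P libraries had a peak 5.2 kb away.

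Signal around the start was high and was followed by a long, even stretch. Summed over the 954 members, the 2 kb around the start held 53484, 37556 and 8864 tags for untreated Ser5-P, Ser5-P after LPS and input, which is 3.68, 3.15 and 0.616 TPM per kb. The first 50 kb held 0.354, 0.358 and 0.447 TPM per kb, and the rest of the body 0.212, 0.215 and 0.394. The start thus exceeded the input 5.97 times in untreated cells (5.84 to 6.10) and 5.11 times after LPS (4.99 to 5.23), whereas the body lay at 0.537 (0.535 to 0.539) and 0.547 (0.545 to 0.549) of the input. Scaled outside peaks, the same ratios were 11.4 and 10.5 at the start, 1.51 and 1.64 in the first 50 kb and 1.02 and 1.12 in the rest. The density of the first 50 kb was 1.67 times that of the rest in untreated cells (1.66 to 1.68) and 1.66 times after LPS (1.65 to 1.67), and 1.14 times in the input (1.13 to 1.14). Without the first 1 kb these ratios were 1.34, 1.38 and 1.13, so part of the excess lay at the start itself and part beyond it.

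The even stretch lay at a higher level in the members with a peak. In the 298 members with a peak in both libraries, the first 10 kb held 1.87 TPM per kb in untreated cells, 1.91 after LPS and 0.734 in the input. From 10 kb on, every 10 kb step up to 200 kb lay between 0.494 and 0.585 in untreated cells and between 0.553 and 0.661 after LPS, with the input between 0.556 and 0.626. Scaled outside peaks this is 1.65 to 1.96 times the input in untreated cells and 2.03 to 2.28 times after LPS, with no decline up to 200 kb. The steps end there, while many of these genes run further. Over their whole rest of the body the same ratios were 1.76 and 2.01, the LPS value lying below each step up to 200 kb. The 614 members without a peak at the start held 0.120, 0.111 and 0.347 TPM per kb in the first 50 kb and 0.107, 0.102 and 0.339 in the rest. Their Ser5-P was thus below the input in both windows and nearly the same in the first 50 kb as in the rest.

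**Figure D2:**
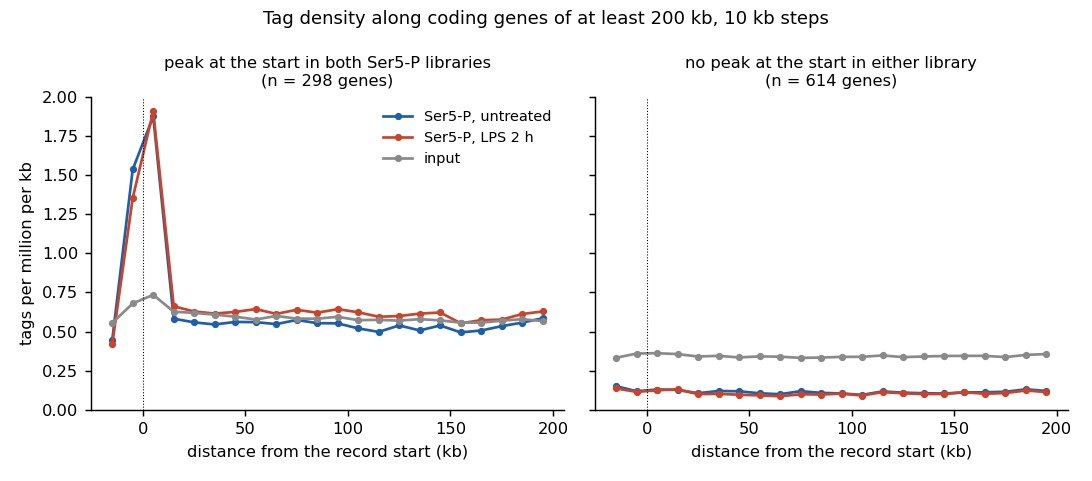
Tag density (y axis, TPM per kb) in 10 kb steps from 20 kb upstream to 200 kb downstream of the record start (x axis), summed over members with a peak at the start in both Ser5-P libraries (left) or in neither (right), for untreated Ser5-P (blue), Ser5-P after LPS (red) and input (grey). On the left both Ser5-P lines pass 1.8 in the first 10 kb and then run level, at 0.494 to 0.661, and on the right they stay at 0.131 or lower from 10 kb on, with the input at 0.332 to 0.356.

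Comparing LPS-treated with untreated cells, more members were lower than higher at the start, and equal numbers were lower and higher in the rest of the body. The windows differ in length and in the members with enough tags, so these counts do not follow the same genes along their length. At the start, 28 of the 404 members with enough tags were higher after LPS by the rule of size (6.93%, where the share over all coding genes was 5.61%) and 84 were lower (20.8%, over all coding genes 14.1%). In the first 50 kb, 38 of 939 were higher (4.05%, over all coding genes 5.97%) and 80 lower (8.52%, over all coding genes 11.6%). In coding genes shorter than 50 kb this window ends with the gene, so that background is not like for like. In genes of 50 to 200 kb, where the window has its full length, 4.67% were higher and 7.84% lower. The same limit holds where the shares over all coding genes stand beside gene lists below. In the rest of the body, 34 of 943 were higher (3.61%) and 34 lower (3.61%). There the background is the 4480 coding genes longer than 50 kb with enough tags, the members among them, of which 5.67% were higher and 10.4% lower. Scaled outside peaks, 40 members were higher and 19 lower in the rest, and with a minimum of 30 tags 15 were higher at the start. The share of members lower at the start was thus above that of all coding genes, and the share lower in the rest was below that of coding genes longer than 50 kb. The rest is a longer window in members than in genes of 50 to 200 kb, so these shares in the rest differ in counting error. How far this set them apart was not tested. The median ratio over the members with enough tags was 0.804 at the start, 0.914 in the first 50 kb and 0.907 in the rest. In the rest of genes of 50 to 200 kb the median was 0.901. The sums moved little: LPS over untreated was 0.856 (0.845 to 0.867) at the start, 1.01 (1.00 to 1.02) in the first 50 kb and 1.02 (1.01 to 1.02) in the rest. Without the 10 members with the most Ser5-P tags the sums for the first 50 kb and the rest were 0.932 and 0.996, so the side of 1 on which they lie was set by those 10. With 1 library each, the lower and higher calls describe these libraries.

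**Figure D3:**
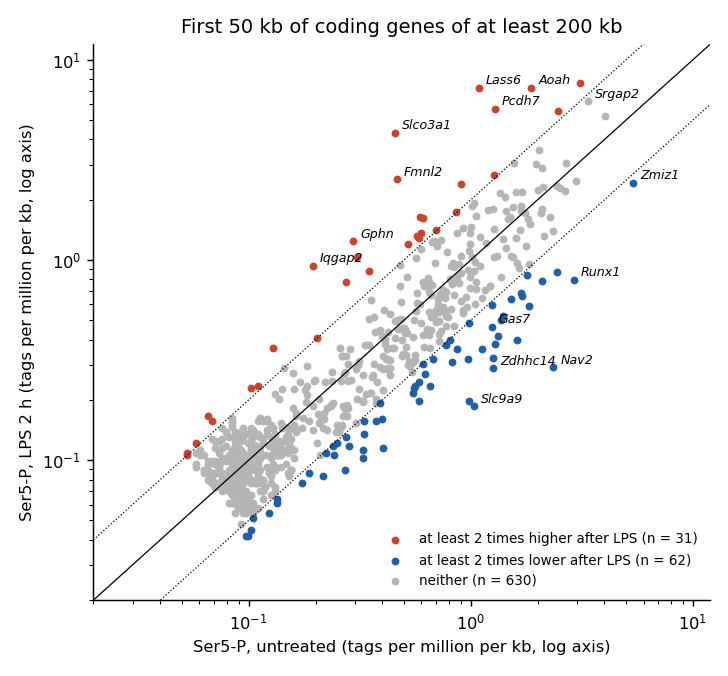
Ser5-P density in the first 50 kb of each of the 723 members with at least 50 Ser5-P tags there, untreated (x axis) against LPS (y axis), in TPM per kb on log axes. The solid line marks equality and the dotted lines a difference of 2 times. The 31 members in red lie above the upper dotted line, led by Slco3a1, and the 62 in blue below the lower one, led by Nav2.

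The largest difference in the first 50 kb was at Slco3a1, a transporter of the organic anion family that carries prostaglandins among other substrates (chr7:81420305-81699666, minus strand, 279.4 kb). The first 50 kb held 173 tags in untreated cells, 1351 after LPS and 250 in the input. This is 0.454, 4.32 and 0.664 TPM per kb, a ratio of 9.52 (8.12 to 11.2). On this scale untreated Ser5-P was thus below the input and LPS Ser5-P well above it, which does not show that Ser5-P was absent in untreated cells. Around the start, where a peak was present in both libraries, the counts were 136, 328 and 10 and the ratio 2.94 (2.40 to 3.62). The rest of the body held 490, 3494 and 988 tags, a ratio of 8.69 (7.90 to 9.57). Along the gene in 50 kb segments the ratio was 9.52, 13, 11.7 and 7.77 up to 200 kb, then 4.95 and 4.82.

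Lass6, a ceramide synthase (chr2:68699498-68952339, plus strand, 252.8 kb), came next and differed over its whole length. Its first 50 kb held 414 tags in untreated cells, 2263 after LPS and 312 in the input, a ratio of 6.66 (6.00 to 7.42). Its rest held 897, 7040 and 1053 tags, a ratio of 9.56 (8.92 to 10.3). The segment ratios were 6.66, 8.53, 8.84, 9.68 and 11.5, the last being the highest. At the start the counts were 222, 430 and 27 and the ratio 2.36 (2.00 to 2.79), again smaller than in the body.

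Fmnl2, a formin that extends actin filaments, held 177, 790 and 289 tags in the first 50 kb (untreated, LPS and input), a ratio of 5.44 (4.62 to 6.44). Its segment ratios were 4.16, 4.66, 4.05 and 3.16 from 50 to 250 kb and 1.54 in the last segment. Iqgap2, a scaffold protein that binds Rac and Cdc42, held 74, 293 and 225 tags in the first 50 kb, a ratio of 4.83 (3.73 to 6.31), and its segments then gave 2.42, 2.70, 1.85 and 1.35. In Fmnl2 LPS Ser5-P exceeded the input in every segment, and in Iqgap2 in the first 50 kb alone. In both genes the ratio of the last segment was the one nearest to equality. Iqgap2 holds F2rl2, a receptor gene on the other strand, inside its record, and tags cannot be assigned to a strand of transcription.

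Pcdh7, a protocadherin of neuronal adhesion, and Gphn, the gene of gephyrin, which anchors inhibitory receptors at synapses and takes part in molybdenum cofactor synthesis, are the longest of the 8 members with the largest ratios. The first 50 kb of Pcdh7 held 488, 1776 and 233 tags, a ratio of 4.44 (4.01 to 4.91). Its next segments up to 200 kb gave 3.05, 3.41 and 3.84, and those from 200 kb to the end at 411.3 kb gave 1.54, 1.66, 1.24 and 1.11. The first 50 kb of Gphn held 112, 387 and 156 tags, a ratio of 4.21 (3.40 to 5.24). Its segments up to 250 kb gave 4.09, 5.05, 6.01 and 3.60, that from 250 to 300 kb gave 1.95, and the last 3 gave 0.963, 0.930 and 1.13. The difference between the libraries was thus at least 3.05 times in each segment of the first 200 kb and at most 1.24 times beyond 300 kb. The last segment of Gphn held 58 untreated, 54 LPS and 213 input tags, so Ser5-P there was below the input in both libraries.

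Aoah encodes acyloxyacyl hydrolase, the enzyme that removes secondary acyl chains from LPS. Its first 50 kb held 712, 2268 and 291 tags (untreated, LPS and input), a ratio of 3.88 (3.57 to 4.23), and its rest 2150, 5693 and 774, a ratio of 3.23 (3.07 to 3.39). Ser5-P exceeded the input over the whole gene already in untreated cells. Ube2e2, a ubiquitin-conjugating enzyme, held 117, 325 and 107 tags in the first 50 kb, a ratio of 3.39 (2.73 to 4.22), and 382, 1375 and 671 in the rest, a ratio of 4.39 (3.91 to 4.93). Its segment ratios reached 6.05 between 150 and 200 kb and ended at 2.57.

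Nav2, a relative of the neuron navigator proteins that act on the cytoskeleton (chr7:56501559-56865457, plus strand, 363.9 kb), had the smallest ratio in the first 50 kb. The tags there were 895 in untreated cells, 91 after LPS and 312 in the input. This is 2.35, 0.291 and 0.828 TPM per kb, a ratio of 0.124 (0.0988 to 0.154). The LPS value lay below the input while a peak at the start remained, with 355, 102 and 10 tags (ratio 0.350, 0.278 to 0.438). In 50 kb segments from the start the LPS tags numbered 91, 50, 73, 185, 245, 380 and 664, and the untreated tags 895, 540, 552, 919, 723, 637 and 749. The corresponding ratios were 0.124, 0.113, 0.161, 0.245, 0.413, 0.727 and 1.08. After LPS the density therefore climbed toward the end of the gene, where both libraries were level.

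Slc9a9, a sodium-proton exchanger of endosomes, and Arhgap24, a GTPase-activating protein for Rac, repeated this shape at lower density. Slc9a9 held 392, 58 and 329 tags in the first 50 kb (untreated, LPS and input), a ratio of 0.180 (0.134 to 0.238). Its ratio stayed at or below 0.504 up to 350 kb and was 0.673, 0.973, 1.24 and 0.850 in the last 4 segments. Arhgap24 held 373, 62 and 320 tags in the first 50 kb, a ratio of 0.203 (0.152 to 0.266). Its segments gave 0.305, 0.421 and 0.272 from 50 to 200 kb, 0.566 and 0.604 up to 300 kb, and 0.931 and 1.00 at the end. In both genes the start had a peak in untreated cells only, with 78 and 10 tags at Slc9a9 and 146 and 16 at Arhgap24.

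Other members were lower over their whole length. Zdhhc14, a palmitoyltransferase, held 478, 90 and 242 tags in the first 50 kb (ratio 0.229, 0.181 to 0.288) and 1827, 309 and 1202 in the rest (0.206, 0.182 to 0.233), and no segment passed 0.268. Sh3pxd2a, the podosome scaffold Tks5, held 479, 101 and 343 tags in the first 50 kb (0.257, 0.205 to 0.319) and 702, 220 and 576 in the rest (0.382, 0.327 to 0.445). Lama3, a laminin chain of basement membranes, held 153, 36 and 173 tags in the first 50 kb (0.287, 0.194 to 0.415) and 619, 211 and 657 in the rest (0.415, 0.354 to 0.486). After LPS these 3 genes lay below the input in both windows. E130114P18Rik held 613, 125 and 251 tags in the first 50 kb, a ratio of 0.249 (0.203 to 0.302), and 121, 105 and 496 in the rest, a ratio of 1.06 (0.806 to 1.39). Its record shares sequence with that of Nfia on the opposite strand, so its tags cannot be assigned to either gene.

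Transcription factors showed several shapes. Runx1, a regulator of blood cell development, held 1109, 249 and 407 tags in the first 50 kb (ratio 0.274, 0.238 to 0.314) and 4356, 2092 and 1172 in the rest (0.585, 0.555 to 0.617). A start 128.7 kb into its record carried 503 tags in untreated cells and 303 after LPS against 183 and 49 at the record start. Mitf, which controls genes of lysosomes and pigment, held 940, 1740 and 437 tags in the first 50 kb (2.26, 2.08 to 2.44) and 1430, 4046 and 868 in the rest (3.45, 3.25 to 3.67). Trps1, a GATA-type repressor, held 747, 943 and 381 (1.54, 1.40 to 1.70) and then 958, 2976 and 1114 (3.79, 3.52 to 4.08), with segment ratios of 1.54, 2.52, 4.25, 4.34 and 4.53 along the gene. Trps1 was the reverse of Nav2 in that LPS and untreated Ser5-P were closest at the start and furthest apart at the end. Etv6, an ETS-family repressor, held 610, 687 and 394 tags (1.37, 1.23 to 1.53) and 1667, 1532 and 1193 (1.12, 1.04 to 1.20), with ratios closer to 1.

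Gas7, a protein that binds membranes and actin, holds both directions in a single record (chr11:67268939-67502492, plus strand). Its first 50 kb held 473 tags in untreated cells, 145 after LPS and 341 in the input, a ratio of 0.374 (0.308 to 0.451). Its rest held 2516, 4628 and 1201 tags, a ratio of 2.24 (2.14 to 2.35). The outer start had a peak in untreated cells only. The inner start, whose CpG-free upstream bases are given above, had a peak in both libraries, with 97 tags before and 163 after LPS. The segment ratios ran 0.374, 1.02, 2.08, 2.43 and 2.69. Read from the inner, more tagged start the first 50 kb gave a ratio of 2.39, so the direction of this gene depends on which start is taken. The higher LPS signal already lay before the inner start, with 370 untreated and 575 LPS tags from 100 to 125 kb (ratio 1.89). It therefore cannot be read as running from that start alone. The record also overlaps Glp2r on the other strand, and tags cannot be assigned to either gene.

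**Figure D4:**
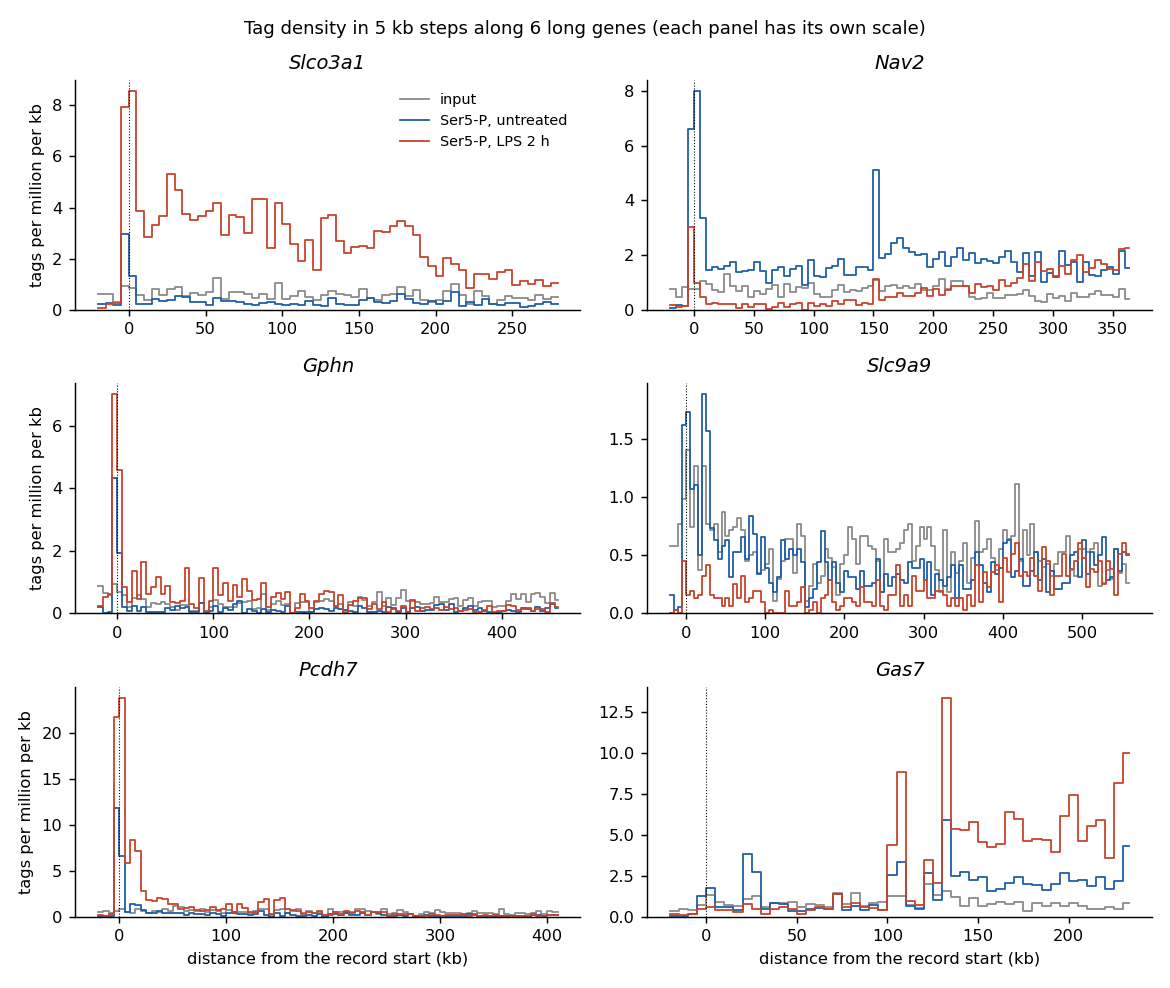
Tag density (y axis, TPM per kb) in 5 kb steps along 6 members, against distance from the record start (x axis), for untreated Ser5-P (blue), Ser5-P after LPS (red) and input (grey), each panel on its own scale from 0. LPS exceeds untreated over all of Slco3a1 and over the first part of Gphn and Pcdh7, is below it over the first 250 kb of Nav2 and most of Slc9a9, and changes side along Gas7.

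The named genes with the largest and smallest ratios were chosen by their first 50 kb. The pattern was therefore also read from groups made with the 2 kb around the start alone, a choice made after the values were seen. With at least 50 Ser5-P tags there, 9 members were at least 2 times higher after LPS, 65 at least 2 times lower and 236 neither. The 65 lower members had a summed ratio of 0.365 at the start (0.350 to 0.381), which the grouping fixed. From 1 to 25 kb the ratio was 0.478 (0.460 to 0.496), from 75 to 100 kb 0.580 (0.557 to 0.605) and from 175 to 200 kb 0.773 (0.745 to 0.801). Beyond 225 kb, where 40 of the 65 or fewer reach, it lay between 0.671 and 0.759. The median over the same members moved less and unevenly, from 0.512 at first to 0.603 and then 0.660, with 0.554 from 100 to 125 kb and again from 150 to 175 kb. In the 86 coding genes of 100 to 200 kb grouped in the same way, the ratio was 0.458 (0.445 to 0.471) from 1 to 25 kb and 0.446 (0.432 to 0.459) from 75 to 100 kb, with no such slope. Of the 65 members, 32 were at least 2 times lower from 1 to 25 kb and 24 from 175 to 200 kb.

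The 9 higher members, which include 7 of the genes above, stayed higher along their length. Their ratio was 2.58 at the start (2.39 to 2.78) and 5.39 from 1 to 25 kb (5.06 to 5.75). In the following 25 kb steps up to 250 kb it lay between 3.61 and 5.48 with no steady direction, the last of them giving 5.24 (4.66 to 5.90) in the 6 members that reach so far. From 250 to 275 kb it was 2.29 (1.97 to 2.68) in 4 members, so the group is not the same from step to step beyond 200 kb. The 236 members that were neither stayed between 1.02 and 1.17 from 1 kb to 275 kb in their sums, with medians under 1. The median over the 9 was 4.71 from 1 to 25 kb and 2.52 from 175 to 200 kb.

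**Figure D5:**
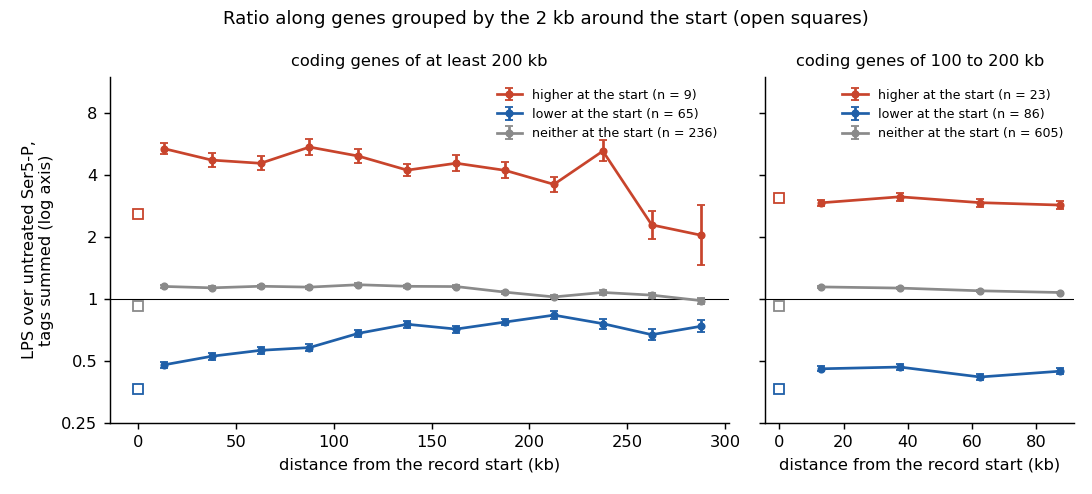
LPS over untreated Ser5-P in tags summed over genes (y axis, log scale) by distance from the record start (x axis) in 25 kb steps, for coding genes of at least 200 kb (left) and of 100 to 200 kb (right), grouped by the ratio in the 2 kb around the start (open squares at 0). Error bars are exact 95% intervals of counting error. On the left the lower group goes from 0.478 to 0.773 by 200 kb and 0.736 in the last step, and the higher group lies between 3.61 and 5.48 up to 250 kb and at 2.05 in the last step with 2 genes, and on the right the lower group stays between 0.418 and 0.467.

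Grouped by the first 50 kb instead, 722 members had at least 50 Ser5-P tags in both the first 50 kb and the rest. Of the 31 that were higher in the first 50 kb, 14 were also at least 2 times higher in the rest and 25 had a smaller ratio there. Of the 62 that were lower, 16 were also at least 2 times lower in the rest, 44 were neither and 2 were higher, and 56 had a larger ratio there. Genes of 100 to 200 kb kept the call more often, with 42 of 59 higher and 59 of 100 lower also past 2 times in the rest. Their rest is the 50 to 150 kb next to the first window, shorter and nearer than that of the members, and the difference was not tested. Part of such a narrowing is built in, since the first window chose the genes. The 37 members with a peak in untreated cells only had ratios of 0.314 at the start (0.281 to 0.350), 0.444 in the first 50 kb (0.424 to 0.465) and 0.953 in the rest (0.935 to 0.972). They were picked by their peaks in these same libraries, so a low ratio at the start, and in the window that contains it, was largely built in. How much of the difference from the rest follows from that choice was not tested.

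Kinases gave a further mixed case. Prkcb, protein kinase C beta, held 484, 832 and 359 tags in the first 50 kb (ratio 2.10, 1.87 to 2.35) and 1477, 1319 and 1483 in the rest (1.09, 1.01 to 1.17). Its segment ratios ran 2.10, 1.90, 1.51, 0.807, 0.512, 0.557 and 0.969, so LPS Ser5-P was above untreated near the start and below it between 200 and 300 kb. Camk2d, a calcium/calmodulin-dependent kinase, held 551, 548 and 328 tags (1.21, 1.07 to 1.37) and 998, 1660 and 1073 in the rest (2.03, 1.87 to 2.19). Cdk14, a cyclin-dependent kinase, was level with 668, 538 and 297 tags (0.982, 0.875 to 1.10) and 4920, 3642 and 2663 in the rest (0.902, 0.864 to 0.942). A peak at the start in either library was found in 35.6% of all members, and 51.0% of all coding genes had none. Over the 41 members of the list of kinases, phosphatases and cyclic nucleotide enzymes, 21 (51.2%) had such a peak. In the first 50 kb 2 were higher and 3 lower (over all coding genes 5.97% and 11.6%), with a median ratio of 0.951, and in the rest 3 were higher and none lower (over genes longer than 50 kb 5.67% and 10.4%).

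Neuronal adhesion and synapse genes mostly lacked a Ser5-P peak at the start. Of 106 members in this list, Pcdh7 alone had a peak at the start, beside 340 of 954 (35.6%) of all members. Scaled outside peaks, their Ser5-P in the rest of the body was 0.440 times the input in untreated cells (0.435 to 0.445) and 0.444 times after LPS (0.438 to 0.449), against 1.02 and 1.12 over all members. In the first 50 kb their values were 0.566 and 0.834, against 1.51 and 1.64. At the start they were 1.90 and 3.47, against 11.4 and 10.5, in sums that include Pcdh7. Rbfox1, a splicing regulator of neurons, held 42, 73 and 157 tags in the first 50 kb and 356, 475 and 1386 in the rest, a ratio of 2.12 in the first 50 kb (1.43 to 3.17) on Ser5-P levels below the input. Grik4, a glutamate receptor subunit, held 61, 35 and 109 and then 340, 215 and 1115. Cacna1c, a calcium channel, held 278, 174 and 173 in the first 50 kb, above the level of the other 2, with 9, 10 and 4 at the start and with 40 untreated and 35 LPS tags from 50 to 100 kb. Its record overlaps Dcp1b, an mRNA decapping factor on the other strand, and the tags cannot be assigned to either gene. In the first 50 kb 4 members of the list were higher and 9 lower (over all members 4.05% and 8.52%, over all coding genes 5.97% and 11.6%), and the median ratio was 0.883 beside 0.914 for all members.

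The 57 transcription factors and chromatin regulators had a peak in 24 (42.1%), beside 35.6% of all members, while 51.0% of all coding genes had none. In the first 50 kb 2 of the 57 were higher and 7 lower (median ratio 0.84, over all coding genes 5.97% and 11.6%). In the rest 4 of the 57 were higher and 2 lower (median ratio 0.909, over genes longer than 50 kb 5.67% and 10.4%). The 8 RNA-binding and splicing regulators had a peak in 3 (37.5%, beside 35.6% of all members). None of the 8 was past 2 times in the first 50 kb (over all coding genes 5.97% higher and 11.6% lower). In the rest 1 of the 8 was lower (over genes longer than 50 kb 10.4%). Among the 8, Eif4g3, a translation initiation factor, held 808, 725 and 249 tags in the first 50 kb (1.09, 0.988 to 1.21) and 1556, 926 and 796 in the rest (0.725, 0.668 to 0.787). Rbms1, an RNA-binding protein, held 286, 222 and 328 and then 2065, 2063 and 1099, with ratios of 0.946 (0.790 to 1.13) and 1.22 (1.14 to 1.29). Msi2, a translational regulator of blood stem cells, held 153, 103 and 178 and then 621, 350 and 1081, with ratios of 0.820 (0.633 to 1.06) and 0.687 (0.601 to 0.784). These 3 differed by less than 1.5 times between the libraries in both windows.

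Genes of common fragile sites, long genes at which chromosomes tend to break under replication stress, had a peak at the start in 9 of 17 members (52.9%, beside 35.6% of all members). At the start 10 of the 17 had enough tags, of which none was higher and 4 were lower (over all coding genes 5.61% and 14.1%), with a median ratio of 0.596 beside 0.804 for all members. In the rest none of the 17 was past 2 times (over genes longer than 50 kb 5.67% higher and 10.4% lower). Wwox, an oxidoreductase and tumour suppressor of 913.1 kb, held 78, 38 and 12 tags at the start (0.594, 0.392 to 0.886) and 1534, 1031 and 3097 in the rest (0.819, 0.756 to 0.887). Exoc4, a subunit of the exocyst, held 89, 35 and 16 (0.479, 0.314 to 0.716) and 1439, 1150 and 2700 (0.974, 0.901 to 1.05). Large, a glycosyltransferase of dystroglycan, held 204, 126 and 8 (0.753, 0.598 to 0.945) and 981, 764 and 1481 (0.949, 0.862 to 1.04). Lpp, a LIM protein of focal adhesions, was the exception with 83, 87 and 10 at the start (1.28, 0.935 to 1.75) and 2068, 3172 and 3979 in the rest (1.87, 1.77 to 1.98). Its segments between 200 and 400 kb gave 2.58, 2.81, 2.60 and 3.39, and the last gave 0.913.

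The highest densities in the rest of the body, both Ser5-P libraries together, were at Abr, Aoah, Atp5o, Gas7, Lass6, Pid1, Runx1 and Zmiz1. Zmiz1, a coregulator of the PIAS type, held 2048, 758 and 442 tags in the first 50 kb (0.451, 0.414 to 0.491) and 4296, 1852 and 912 in the rest (0.525, 0.497 to 0.555). Pid1, an adaptor that binds lipoprotein receptors, held 1182, 2405 and 371 (2.48, 2.31 to 2.66) and 3416, 6090 and 1258 (2.17, 2.08 to 2.27). Both kept 1 direction along their length. Abr, which acts on Rac, held 793, 899 and 380 tags in the first 50 kb (1.38, 1.25 to 1.52) and 4187, 6616 and 1031 in the rest (1.93, 1.85 to 2.00), so its difference was larger away from the start. Srgap2, a membrane-bending GTPase-activating protein, had the most Ser5-P tags at the start of any member, 1024 in untreated cells, 1356 after LPS and 26 in the input, a ratio of 1.61 (1.49 to 1.75). Tbc1d5, a GTPase-activating protein for Rab7, had many tags at the start, with 623, 324 and 12 (0.634, 0.552 to 0.726), and 867, 544 and 1662 in the rest, below the input. A strong start thus did not come with a strong body in each gene.

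Some records span other coding genes, whose tags are then counted in their bodies. The longest, Gm20388 of 4434.9 kb, overlaps 74 other coding records, Fgfr2 of 3009.1 kb overlaps 32, and the record of Atp5o, a subunit of ATP synthase, overlaps Cryzl1, Donson and Itsn1. The record named a (nonagouti) overlaps Raly and Eif2s2, and its start with 568, 453 and 20 tags is among the most tagged. In all, 216 members overlap another coding gene. Ptprd, a receptor phosphatase of 2270.7 kb and the third longest, held 4, 0 and 2 tags at the start and 977, 694 and 4635 in the rest, below the input. When other annotated genes with 2 kb on each side were left out, the members' sums in the body were 0.488 and 0.510 of the input in place of 0.537 and 0.547.

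Summed over the members' records, starts included, there were more peaks after LPS than in untreated cells. The median member contained 0 peaks in both libraries, and the most in a single member was 353 untreated and 251 LPS peaks. The 954 members contained 3154 of 53467 untreated peaks (5.90%) and 4253 of 49371 LPS peaks (8.61%), which cover 1543 and 2242 kb. Of these, 19.8% and 13.8% lay within 1 kb of an annotated start of any transcript. They were unevenly spread, since 544 members contained no untreated peak and 572 no LPS peak, while 31 and 46 members held at least 20. The authors called the peaks in each library by itself.

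Just inside the length limit lay Pcbp3 (200.03 kb), Plcxd3 (200.06 kb) and 4930402H24Rik (200.2 kb), with 32, 3 and 165 untreated and 23, 2 and 127 LPS tags at the start. Just outside lay Morc1 (199.7 kb), Clec16a (199.5 kb) and Bckdhb (199.1 kb), with 2, 96 and 123 untreated and 0, 106 and 52 LPS tags. Each side thus held genes with and without Ser5-P at the start.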

How the data were processed

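Ser5-P ChIP-Seq was measured in 1 untreated and 1 LPS-treated library of macrophages, with 1 input library. The authors trimmed the reads, aligned them to mm9 with Bowtie (submitters' processing notes, version not given in the sources used here) and deposited every uniquely placed tag, tags at the same position included. They called peaks with MACS in each library against the input and deposited a score per peak, which is −10 log10 of the MACS p-value. The score was used only for a stricter alternative.

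The tags' 5′ ends on chromosomes 1 to 19 and X were counted in windows of GENCODE M1 genes with Python 3.11.15, numpy 2.4.6, pandas 2.3.3 and scipy 1.17.1, 1 being added to deposited positions that count from 0. Windows were 1 kb on either side of the start, the first 50 kb and the rest. Counts were scaled to 1000000 tags per library and divided by the window's kb. Intervals are exact Poisson, exact conditional (ratios) and exact binomial at 95%, and cover counting error alone. Tags carry no molecular identifiers, so duplicates may not be separate molecules. With 1 library per condition no test was made. Calls needed 10 Ser5-P tags and a difference of 2 times, with 0 tags set to 0.5. The counting was tested on simulated data. Promoter sequences came from the NCBIM37 genome, which is mm9.

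Named genes were the 8 largest and 8 smallest ratios in the first 50 kb (at least 50 tags), the 8 densest bodies, the 4 most tagged starts, the 3 longest, 3 on either side of the limit and 2 to 4 of each gene list by tags. Some genes and 1 gene list are not reported here. The members and lists were chosen with earlier results of these data known. Alternatives changed the scaling, duplicates, start, windows, thresholds, length limit and overlapping genes.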

Additional observations from a re-analysis of the deposited data

How the results depend on the processing

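With 1 library per condition no library could be left out. No paired analysis was possible because each condition has 1 library and no result comes from a test. The order of values below is the start, the first 50 kb and the rest of the body. Of the summed ratios and counts under alternatives, 82 stayed within the counting interval or within 1.5 times and 82 moved. Among values for single genes and groups, 549 stayed, 49 moved and 1 crossed 1. That was Gas7, whose first 50 kb gave 2.39 when read from the annotated start with the most tags. The cause of the moves was not tested.

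Scaled to tags outside the peaks, untreated Ser5-P over input became 11.4, 1.51 and 1.02, LPS over input 10.5, 1.64 and 1.12, and LPS over untreated 0.921, 1.09 and 1.10, and 19 members were at least 2 times lower in the rest in place of 34. With 1 tag per position and strand, untreated over input became 5.68, 0.813 and 0.560, LPS over input 0.831 and 0.572 in the last pair of windows, LPS over untreated 0.880 and 1.02 in the first pair, and the start to rest density ratio 1.65 in untreated cells. Without other annotated genes, untreated over input became 5.42, 0.731 and 0.488, LPS over input 4.63, 0.747 and 0.510, LPS over untreated 1.02 and 1.05 in the first 50 kb and the rest, and the density ratio 1.71 and 1.67 in untreated and LPS cells. From the annotated start with the most tags, untreated over input became 6.60, 0.813 and 0.553, LPS over input 5.82, 0.875 and 0.567, LPS over untreated 0.883, 1.08 and 1.02, and the density ratio 1.71 and 1.80.

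With genes of at least 150 kb, untreated over input became 6.47, 0.889 and 0.585, LPS over input 5.62, 0.913 and 0.603, LPS over untreated 0.869, 1.03 and 1.03, and the density ratio 1.76 and 1.75. With genes of at least 300 kb they became 4.72, 0.616 and 0.449, then 3.69, 0.566 and 0.422, then 0.781, 0.920 and 0.941, with density ratios of 1.51 and 1.47. Without the 10 members with the most Ser5-P tags, LPS over untreated became 0.829, 0.932 and 0.996, and as a median over members with 10 tags 0.804, 0.914 and 0.907. The direction of LPS over untreated in the first 50 kb and the rest thus depended on these choices, and that at the start did not.

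The density ratio became 1.34 and 1.38 (untreated and LPS) from 1 to 50 kb, 2.28 and 2.26 for the first 20 kb, and 1.49 and 1.51 for the first 100 kb. A minimum of 30 tags left 15 members higher at the start, and a minimum of 1 tag gave 170 higher and 251 lower there. At 1.5 times, 58, 106 and 70 members were higher and 146, 206 and 117 lower.

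Grouping the members by the 2 kb around the start, an alternative chosen after seeing the data, gave LPS over untreated ratios of 4.74 and 4.22 (25 to 50 and 175 to 200 kb) in the higher group in place of 3.22 and 2.70 when grouped by the first 50 kb, and 0.527 and 0.773 in the lower group in place of 0.376 and 0.642.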
